A study of Mus musculus with 2 samples.

Results

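The fibroblasts described here were 76 of the 15453 cells in 2 single-cell RNA libraries of mouse lung, 34 of 8280 cells in the control library and 42 of 7173 in the fibrosis library. They were chosen on their own transcripts. A cell was a member if at most 10% of its unique molecular identifiers (UMIs, the tags that count captured RNA molecules) came from mitochondrial genes and if at least 4 of 9 genes were detected with 1 or more UMIs. The 9 genes were Col1a1, Col1a2, Col3a1, Pdgfra, Dcn, Inmt, Tcf21, Npnt and Lum. A member also had no UMI of Ptprc (leukocytes), Pecam1 (endothelium), Msln and Upk3b (mesothelium) or Lamp3 (alveolar type 2 cells). The levels of these genes chose the cells, so they are given below as a description.

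The lungs came from C57Bl/6J males aged 3 months, collected 14 days after an intratracheal dose of 100 µg of either crocidolite asbestos or titanium dioxide (TiO2). Crocidolite, a mineral fibre, causes lung scarring; TiO2 particles are often given as an inert comparison. The labels name the libraries control and fibrosis without saying which mouse received which material, and those names are used here. Each library came from the digested lung of 1 mouse, so no difference has a replicate check and all intervals are exact 95% intervals that cover counting error only.

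Fibroblasts make and repair the connective tissue of the lung. They secrete collagens, elastic fibre proteins and proteoglycans, the enzymes that crosslink or degrade them, and signals that maintain the neighbouring epithelium and vessels. Fibroblasts in the alveolar wall and those in the sheaths around bronchi and vessels carry different genes, and in fibrosis some fibroblasts take up a programme of collagen production and contraction.

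Members made up 0.424% (0.294 to 0.591) of the 8026 control cells and 0.605% (0.436 to 0.817) of the 6945 fibrosis cells that passed the mitochondrial limit, and these intervals overlapped. The yield of fibroblasts from a digested lung need not match their share in the tissue. Control members held a median of 3324 UMIs (1688 to 11546) and fibrosis members a median of 4033.5 (2137 to 10649), 126507 and 188302 UMIs in all. The medians over all cells of the libraries were 3783.5 and 4292 UMIs. The libraries shared 89 barcodes, and no member carried 1 of them.

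Of the control members, 4 carried 4 of the 9 genes, 6 carried 5, 13 carried 6, 9 carried 7 and 2 carried 8. The fibrosis numbers were 8, 5, 11, 14 and 4. Just outside the rule, 5 cells in each library carried 3 of the 9 genes. Of these, 3 control and 4 fibrosis cells had UMIs of Myh11, the smooth muscle myosin. Among the members with exactly 4 genes, 1 of 4 control and 7 of 8 fibrosis cells had Myh11 UMIs too.

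Genes of the rule describe how firmly members carried it. Col1a2 was present in 33 of 34 control and 41 of 42 fibrosis members, and Inmt, a methyltransferase abundant in lung fibroblasts, in 30 and 33. Pdgfra, a growth factor receptor of fibroblasts, was present in 25 and 33 members, and Tcf21, a transcription factor of lung mesenchyme, in 16 and 15. After every cell was thinned to 1000 UMIs, Col1a2 was found in 82.4% of control and 71.4% of fibrosis members, against 0.350% and 0.851% of B cells, which do not make it. Median depths were 2067 and 2826.5 UMIs in B cells, and the unthinned shares of members were 97.1% and 97.6%. Outside the rule, members also carried genes of fibroblast matrix. Those given here were picked because they led members over all other cells in these data. Their lead describes the members and is no separate check of the label. Mfap4, a microfibril protein, was found in 29 control and 30 fibrosis members, at 1945 and 2151 CPM (UMIs of the gene per 1000000 UMIs of the summed cells) against 3.71 and 9.67 CPM in all other cells. Fbln1, fibulin 1, was found in 21 and 29 members, at 1036 and 685 CPM against 2.64 and 2.57 CPM. Other genes that led members over all other cells in both libraries included Mfap5, Dpt, Loxl1, Pcolce2 and Clec3b, and those that led them over mesothelial cells included Mfap4, Pcolce2, Dpt and Gsn.

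The label did not hold for every member. Myh11 was detected in 1 control and 7 fibrosis members, and these 8 cells had no UMI of Pdgfra or Dcn. They held 13 and 98 UMIs of Myh11, 69 and 389 of Acta2 (smooth muscle actin), 3 and 55 of Des (desmin) and 6 and 27 of Actg2 (gamma smooth muscle actin). They are called the Myh11 group, and results that rest on them are given with and without them. Another 3 members had at least 20 UMIs over Cd74, C1qa, C1qb, C1qc, Chil3 and Cd79a, all leukocyte genes. A control member held 135 UMIs of Chil3, a fibrosis member 122 of Cd74 and 41 of C1qb, and a fibrosis member of the Myh11 group 65 of Cd74 and 26 of Cd79a. Marker lists of other types ranged widely. Schwann cell genes gave 0 and 1 UMI, red cell genes 4 and 1, endothelial genes 18 and 24, mesothelial genes 20 and 11, and fat and cartilage genes none. Airway genes gave 586 and 552 UMIs, leukocyte genes 306 and 601, alveolar type 2 genes 224 and 324 and macrophage genes 210 and 213. The 10 pericyte genes gave 19 UMIs in 13 control members and 93 in 26 fibrosis members, a log2 ratio of 1.69 (0.99 to 2.51), and 0 to 0.0928% and 0 to 0.313% of a cell's UMIs. Of that list, Higd1b and Trpc6 had no UMI and Cox4i2 had 0 and 3, while Abcc9 had 10 and 19, Pdgfrb 6 and 21 and Notch3 0 and 15. Postn, also on that list, had 12 UMIs in the fibrosis cells of the Myh11 group. Over all members the list took 0.0150% of control UMIs and 0.0494% of fibrosis UMIs. Without the Myh11 group it took 0.0138% and 0.0299%. In the Dcn group described next, pericyte genes made up 0.0193% of control UMIs and 0.0482% of fibrosis UMIs, and their part in the results was not tested. The surfactant transcript Sftpc was found after thinning in 82.4% and 69.0% of members and in 82.5% and 83.6% of B cells. The source of its UMIs in members was not tested.

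Members without Myh11 split on 3 of the 9 genes. In both libraries most cells had either Dcn (decorin, a collagen-binding proteoglycan) or Npnt (nephronectin, a basement membrane ligand) and Tcf21. The Dcn group, with more Dcn than Npnt and Tcf21 UMIs together, held 17 control and 19 fibrosis cells. The Npnt group held 15 and 16, and 1 control cell had none of the 3 genes. UMIs of both kinds occurred together in 5 and 5 cells of the Dcn group and in 1 and 4 of the Npnt group. The plot of Dcn against Npnt and Tcf21 shows these arms, with the Myh11 cells near its lower edge. The groups were drawn after the data had been seen.

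**Figure D1:**
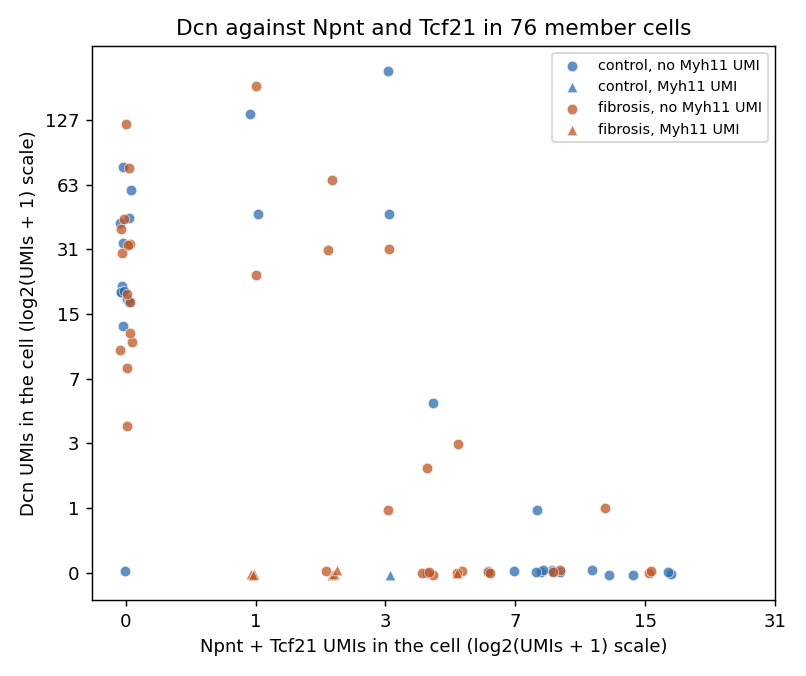
Each point is 1 of the 76 member cells, with its Npnt and Tcf21 UMIs on the x axis and its Dcn UMIs on the y axis, both on a log2(UMIs + 1) scale with a small random shift. Colours mark the 34 control and 42 fibrosis cells, and triangles mark the 8 cells with Myh11, all with 0 Dcn UMIs.

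Genes outside the split differed between the groups in the same direction in each library. Pi16, a secreted protein of fibroblasts in the outer sheath of vessels, gave 213 UMIs in the control Dcn group and 0 in the control Npnt group, and 175 and 0 in fibrosis. Ccl11, the eosinophil chemokine eotaxin, gave 40 and 0, and 47 and 2. Serpinf1 (pigment epithelium-derived factor) gave 59 and 1, and 71 and 3. These genes belonged almost wholly to Dcn cells. On the other side, Aldh1a1, which makes retinoic acid, gave 14 UMIs in the Dcn group and 106 in the Npnt group of the control, and 12 and 90 in fibrosis. Cxcl14, a chemokine, gave 4 and 36, and 7 and 62. Hsd11b1, which activates glucocorticoids, gave 21 and 102, and 22 and 79.

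A split on the collagens Col13a1 and Col14a1, which mark alveolar and adventitial fibroblasts of mouse lung, gave a like picture. More Col13a1 than Col14a1 UMIs were found in 10 cells of each library and more Col14a1 in 15 control and 16 fibrosis cells, while 9 and 16 cells had neither or a tie. In both libraries Aldh1a1, Npnt, Ces1d, Ppp1r14a and Cxcl14 led the Col13a1 side, and Ly6a, Ebf1, Meg3, Pi16 and Klf4 led the Col14a1 side. Aldh1a1 stood at 2646 and 265 CPM on the Col13a1 and Col14a1 sides of the control, and at 1399 and 116 CPM in fibrosis.

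For the comparison between libraries, the UMIs of all members were summed per library, and each gene's log2 ratio of fibrosis over control was taken with 0.5 UMI added to each sum. The 2445 genes with at least 20 UMIs over both libraries were compared, and a gene was called higher or lower at a 2-fold difference, with no test. By that rule 133 genes (5.44%) were higher and 130 (5.32%) lower in fibrosis, and the median log2 ratio was -0.05. With TMM scaling, which adjusts for the make-up of the libraries, the split was 159 and 96. A difference can be one of the whole library, so each ratio was set beside the median ratio of the same gene in 5 other classes: endothelial cells, alveolar type 2 cells, B cells, T cells and alveolar macrophages. Of 2264 genes with such a median, 67 (2.96%) were higher and 82 (3.62%) lower by 2-fold both as they stood and beyond the other classes, and 84 and 50 with TMM scaling.

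Collagen I and III transcripts were higher in the fibrosis members. Col1a1, the main chain of type I collagen, gave 119 UMIs in 27 control cells and 448 in 40 fibrosis cells, or 941 CPM (779 to 1126) and 2379 CPM (2164 to 2610), a log2 ratio of 1.33 (1.04 to 1.64). Col1a2, its partner chain, gave 278 and 751 UMIs (0.86, 0.66 to 1.06). Col3a1, type III collagen, gave 242 and 849 UMIs (1.23, 1.03 to 1.45). All 3 belong to the rule, so these values are descriptive. Col3a1 UMIs were also more frequent in fibrosis cells of the other classes, with a median log2 ratio of 1.15, although at 1.76 to 59.2 CPM there against 1913 and 4509 CPM in members. Mesothelial cells, 24 in control and 22 in fibrosis, are not among those classes and held more collagen RNA. Col1a1 stood there at 40.9 and 367 CPM (log2 ratio 3.07), Col1a2 at 269 and 525 CPM (0.96) and Col3a1 at 895 and 2254 CPM (1.33). Sparc, a matricellular protein that binds collagen and was not in the rule, gave 442 and 1115 UMIs (0.76, 0.60 to 0.92), with 0.90 in the other classes.

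Much of the excess lay in few cells, although the medians within the Dcn and Npnt groups were also higher in fibrosis. Scaled to 10000 UMIs per cell, the median of Col1a1 was 8.05 in control and 10.3 in fibrosis members, while the highest cell stood at 29.0 in control and 124 in fibrosis. For Col1a2 the medians were 20.4 and 22.3, for Col3a1 17.1 and 22.8 and for Sparc 31.1 and 34.7. Most fibrosis cells thus lay inside the control range. Above the highest control cell stood 8 fibrosis cells for Col1a1, 9 for Col1a2, 10 for Col3a1 and 3 for Sparc. They were 11 different cells in all, and 2 of them stood above in all 4 genes. For Col1a1, 7 of the 8 were in the Dcn group, 1 in the Npnt group and none in the Myh11 group. The 5 highest cells held 60.5% of the Col1a1 UMIs of fibrosis members, against 42.0% in control.

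The cell with the most Col1a1 had 112 UMIs of it, with 162 of Col1a2, 160 of Col3a1 and 290 of Sparc among its 9026 UMIs. It was a Dcn cell with 181 Dcn UMIs and 33 of Pi16. Without it the log2 ratios were 0.99 for Col1a1, 0.58 for Col1a2, 1.00 for Col3a1 and 0.40 for Sparc. A stricter rule left out members with 2 or more smooth muscle or pericyte genes or any Epcam, Cldn5 or Cdh5 UMI, which kept 27 control and 24 fibrosis cells. The ratios were then 0.48, 0.20, 0.69 and 0.18. That rule removed 8 of the 11 cells with the highest collagen. Of the 11, 8 had Abcc9 UMIs and 7 had Pdgfrb UMIs, genes of pericytes that fibroblasts also express. Hhip was found in 4 of them, Des, Lmod1, Notch3 and Cldn5 in 1 each, and Myh11, Actg2, Cnn1, Higd1b, Cox4i2 and Cspg4 in none. Whether those cells were fibroblasts alone was not tested.

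**Figure D2:**
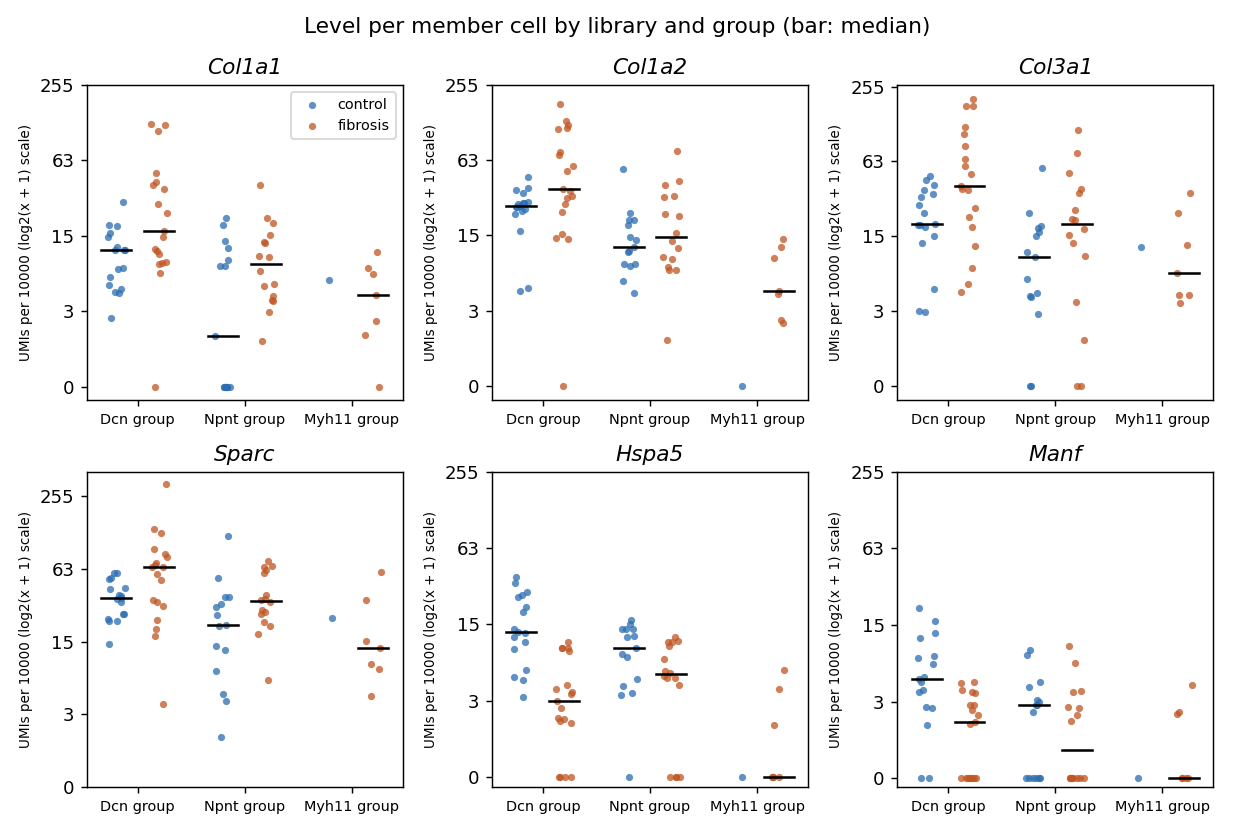
Each point is 1 member cell, at its UMIs per 10000 on a log2(x + 1) scale, by group and library, with a bar at the median where a group has more than 1 cell. The 1 control cell outside the 3 groups is not drawn. Collagen and Sparc points of the fibrosis Dcn group reach above the control points, to 124 for Col1a1, whereas no fibrosis point of Hspa5 exceeds 11.7.

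The measured collagen ratios were larger in the Dcn group than in the Npnt group. In Dcn cells Col1a1 gave 81 and 356 UMIs (log2 ratio 1.90, 1.55 to 2.27), Col1a2 192 and 577 (1.36, 1.12 to 1.60), Col3a1 168 and 610 (1.63, 1.38 to 1.89) and Sparc 286 and 787 (1.23, 1.03 to 1.43). In Npnt cells the values were 32 and 80 for Col1a1 (0.72, 0.12 to 1.37), 84 and 153 for Col1a2 (0.27, -0.12 to 0.67), 63 and 206 for Col3a1 (1.11, 0.70 to 1.55) and 134 and 278 for Sparc (0.46, 0.16 to 0.77). The Dcn and Npnt intervals did not overlap for Col1a1, Col1a2 or Sparc, and overlapped for Col3a1. For Col1a1 and Sparc this rested on 1 cell: without the cell with the most Col1a1, the Dcn ratios were 1.52 (1.15 to 1.90) for Col1a1, 1.04 (lower bound 0.79) for Col1a2, 1.35 (1.09 to 1.62) for Col3a1 and 0.73 (0.52 to 0.94) for Sparc, and only the Col1a2 interval lay clear of that of the Npnt group. Col1a1, Col1a2 and Col3a1 belong to the rule, and the difference between the groups has no replicate check. Within the control library, the Dcn group already stood above the Npnt group, at 1116 against 670 CPM of Col1a1, and in fibrosis at 4184 against 1110 CPM.

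The promoter of Col1a2 is shown because its gene and Col1a1 were higher together, and both are collagen I chains. It spans chr6:4505418-4505617 on the plus strand of GRCm38.p6 (RefSeq), the 200 bases before the gene's start. Capitals mark the letters CCAAT, searched on both strands and found 109 to 105 bases before the start.
Col1a2: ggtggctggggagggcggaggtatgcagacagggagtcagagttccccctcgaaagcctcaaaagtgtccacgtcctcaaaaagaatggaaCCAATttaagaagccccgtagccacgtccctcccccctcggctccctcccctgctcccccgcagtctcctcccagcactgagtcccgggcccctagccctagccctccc
These letters occur in 29.3% of 32851 promoters of the same length. The match is a description, and whether a protein binds there was not tested.

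Most other collagens had ratios above 0, as they did in other cells. Of 20 listed collagens beyond the 3 in the rule, 11 could be compared, 10 had ratios above 0 and the median was 0.64. For the 5 of them that could be compared in the other classes, the median there was 0.71, and the members stood at -0.22 beyond it. One passed 2-fold: Col18a1, which yields endostatin, with 4 and 32 UMIs (2.28, 0.93 to 4.39), of which 4 and 10 remained without the Myh11 group and the leukocyte-rich members. The type VI collagen Col6a3, a beaded-filament chain, gave 32 and 83 UMIs (0.79, 0.20 to 1.44). Col6a2 gave 35 and 99 (0.91, 0.36 to 1.53) and Col6a1 52 and 105 (0.43, -0.05 to 0.95). Col5a2, which joins type I fibrils, gave 32 and 75 (0.64). The basement membrane chain Col4a1 gave 24 and 67 UMIs (0.89, 0.22 to 1.64), and its partner Col4a2 gave 16 and 21 (-0.19, -1.19 to 0.85).

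Of 41 glycoproteins and elastic fibre genes, 31 could be compared, 1 was called higher (5.44% of all genes) and 4 lower (5.32%), with a median of -0.27. Eln, elastin, gave 154 and 406 UMIs (0.82, 0.55 to 1.10), and the other classes gave 0.95. Thbs1, thrombospondin 1, gave 9 UMIs in 4 control cells and 110 in 13 fibrosis cells (2.97, 2.06 to 4.20), with 1.35 in the other classes. Of its UMIs, 5 and 72 were in the Myh11 group and 2 and 35 in the Npnt group, and the ratio was 0.77 at a mitochondrial limit of 5%. The 4 lower genes were Fbln2, an elastic fibre fibulin, with 47 and 22 UMIs (-1.65, -2.47 to -0.91), Efemp1, a related fibulin, with 49 and 32 (-1.18, -1.88 to -0.52), and the growth factor carriers Igfbp3, with 26 and 9 (-2.05, -3.38 to -0.97), and Igfbp5, with 102 and 63 (-1.26, -1.75 to -0.80). They lay in different cells: Fbln2 gave 47 and 21 UMIs in the Dcn group, and Igfbp3 26 and 9 in the Npnt group and 0 in the Dcn group. Igfbp5 rested on few cells, with 41 of its 102 control UMIs in 1 cell. Its ratio was -0.05 among members with at least 5 of the 9 rule genes.

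Summed over all members, the machinery that folds and crosslinks collagen did not move with the collagens as measured. Of 27 listed genes, 14 could be compared, none passed 2-fold either way and the median was -0.18. Without the Myh11 and leukocyte-rich members the median was -0.001. In the Dcn group 10 could be compared, with 1 higher (5.51% of all genes there), none lower and a median of 0.04. The Npnt group had 7, with 1 higher (6.93%), none lower and a median of -0.05. The cells with the highest collagen were not examined apart for this list. Over all members Serpinh1, the collagen chaperone HSP47, gave 157 and 209 UMIs (-0.16, -0.47 to 0.15). The crosslinking enzyme Loxl1 gave 87 and 110 (-0.24, -0.65 to 0.19) and its relative Lox 16 and 32 (0.40, -0.48 to 1.39). Pcolce2, which helps trim procollagen, gave 262 and 216 (-0.85, -1.12 to -0.59). Of the proteoglycans, 11 of 15 could be compared, 1 was higher (5.44% of all genes) and 1 lower (5.32%), with a median of -0.28. In that list Hspg2 (perlecan; 10 and 32 UMIs, 1.06) was higher and Vcan (versican; 14 and 8, -1.34) lower. Of the Hspg2 UMIs, 13 fibrosis UMIs were in the Myh11 group, and without it and the leukocyte-rich members the ratio was 0.54. Bgn, biglycan, gave 350 and 506 UMIs (-0.04, -0.24 to 0.16).

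Of 26 genes of matrix turnover, 15 could be compared, 2 were called higher (5.44% of all genes) and none lower (5.32%). Mmp3, stromelysin 1, gave 15 UMIs in 5 control cells and 103 in 13 fibrosis cells, 119 and 547 CPM (2.17, 1.42 to 3.09). In the Dcn group it gave 7 and 76 of these UMIs (3.12, 2.10 to 4.57), and 5 fibrosis cells held 75.7% of it. Mmp2, gelatinase A, gave 32 and 112 UMIs (1.22, 0.66 to 1.85), and 0.57 after thinning each member to 1500 UMIs. The inhibitors Timp1, Timp2 and Timp3 gave 43 and 41, 136 and 186, and 290 and 356 UMIs, none past 2-fold.

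**Figure D3:**
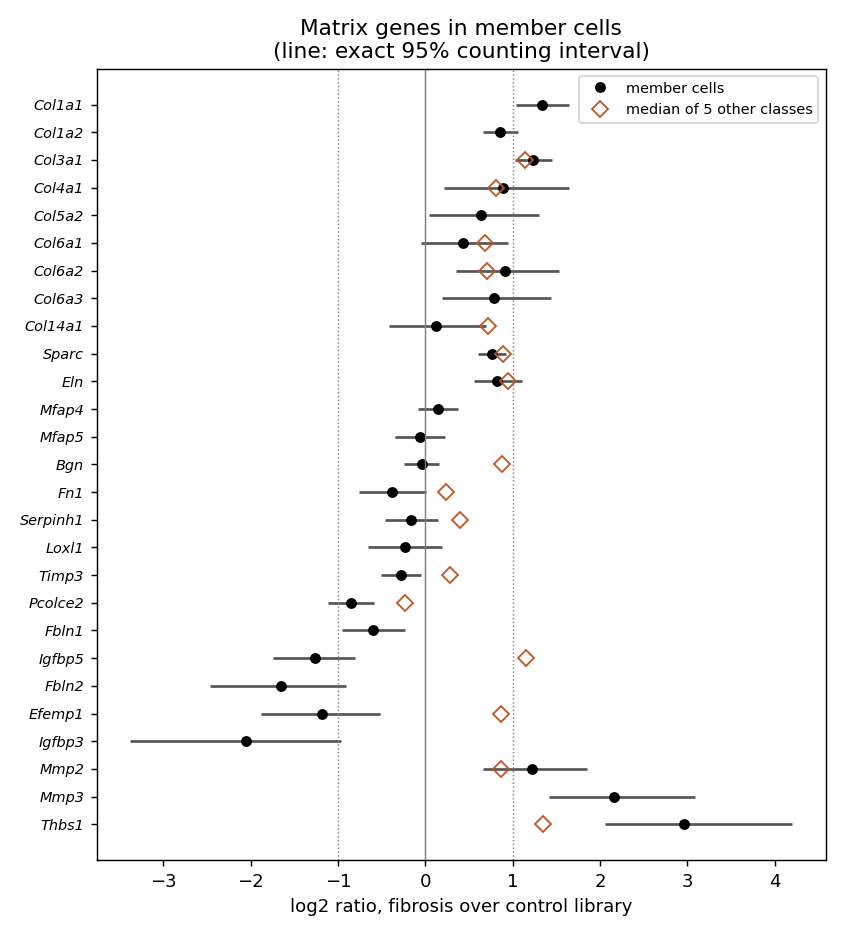
Points give the log2 ratio of fibrosis over control in members for 27 matrix genes, with exact 95% counting intervals, and open diamonds give the median of the 5 other classes where it could be formed. Dotted lines mark 2-fold. Thbs1 at 2.97 and Mmp3 at 2.17 lie farthest right and Igfbp3 at -2.05 farthest left.

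Some endoplasmic reticulum chaperones stood lower in the fibrosis members, with the largest ratios for Hspa5 and Manf among 19 compared. Hspa5 encodes BiP, the main chaperone of that compartment and a gene raised when unfolded protein accumulates. It gave 183 UMIs in 32 of 34 control cells and 87 in 30 of 42 fibrosis cells, or 1447 CPM (1245 to 1672) and 462 CPM (370 to 570), a log2 ratio of -1.64 (-2.03 to -1.27). Per 10000 UMIs, control members ran from 0 to 38.4 with a median of 11.7, and fibrosis members from 0 to 11.7 with a median of 3.82. All 42 fibrosis members lay below the control median, and 17 of 34 control members lay above the highest fibrosis member. The other control members overlapped the fibrosis range, and every fibrosis member lay inside the control range. The ratio kept its sign over all 16 alternative settings, from -1.97 to -1.34. In the 5 other classes its median was 0.23, and in the 24 control and 22 fibrosis mesothelial cells it was -0.55.

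The difference was found in both groups of cells, at different sizes. In Dcn cells Hspa5 gave 126 and 38 UMIs (-1.95, -2.52 to -1.43) and in Npnt cells 46 and 42 (-0.72, -1.36 to -0.09). These intervals did not overlap. In the control library the Dcn group stood at 1736 CPM and the Npnt group at 963 CPM, and in fibrosis at 447 and 583 CPM. Manf, a secreted protein of the same compartment, gave 69 and 35 UMIs (-1.54, -2.18 to -0.95). Its median ratio in the 5 other classes was 0.06, and in mesothelial cells it was -0.72, at 678 and 410 CPM. In Dcn cells Manf gave 53 and 14 UMIs (-2.11, -3.11 to -1.28) and in Npnt cells 13 and 18 (-0.14, -1.23 to 1.03). Of 21 chaperones and quality-control genes of that compartment, a list written after the data had been seen, 19 could be compared. Of these 4 were called lower, none higher, and the median was -0.50, against 0.21 for the same genes in the other classes and 5.32% lower among all genes. Those classes do not include mesothelial cells, where Hspa5 and Manf had ratios below 0 as well. In the Dcn group 16 could be compared, with 2 higher and 3 lower (5.51% and 5.85% of all genes there) and a median of -0.35. The list took 0.922% of UMIs in control and 0.608% in fibrosis of that group. In the Npnt group 11 could be compared, with none past 2-fold and a median of -0.14, and the list took 0.601% and 0.556%. The other lower genes over all members were Xbp1, a transcription factor of the unfolded protein response, with 42 and 31 UMIs (-1.01, -1.73 to -0.31), and Sel1l, of the degradation pathway, with 17 and 10 (-1.31, -2.63 to -0.13). Hsp90b1, the chaperone GRP94, gave 130 and 157 (-0.30, -0.65 to 0.05), Calr, calreticulin, 105 and 101 (-0.63, -1.04 to -0.22) and Canx, calnexin, 27 and 56 (0.46, -0.21 to 1.20).

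The Hspa5 promoter is shown because the gene had the largest ratio of the list and carries the element that defines this response. It spans chr2:34771890-34772089 on the plus strand of GRCm38.p6 (RefSeq). Capitals mark the endoplasmic reticulum stress element, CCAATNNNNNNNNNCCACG, found 65 to 47 bases before the start when both strands were searched. Its first letters are a CCAAT match as well.
Hspa5: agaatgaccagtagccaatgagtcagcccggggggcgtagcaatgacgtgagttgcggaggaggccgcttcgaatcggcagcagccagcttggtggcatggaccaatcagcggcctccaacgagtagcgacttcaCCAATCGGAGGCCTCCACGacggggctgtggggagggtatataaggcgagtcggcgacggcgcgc
The element occurs in 0.103% of promoters of that length, 34 of 32851. The window holds 3 CCAAT matches over both strands, and only the one in the element is marked. Whether a protein binds there was not tested. Other promoters were searched for letters set per gene and are not shown. That of Col3a1 had a match, and those of Sparc, Acta2, Des and Cnn1 had none to the letters sought.

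Contractile genes were higher in the fibrosis members, and most of their UMIs lay in the Myh11 group. Of 22 listed genes, 20 could be compared, 9 were called higher (5.44% of all genes), none lower (5.32%), and the median was 0.87. Acta2 gave 93 UMIs in 6 control cells and 426 in 15 fibrosis cells (1.62, 1.29 to 1.96), of which 69 and 389 were in the 1 and 7 Myh11 cells. Tagln, transgelin, gave 56 and 161 UMIs (0.94, 0.50 to 1.42), with 38 and 151 in those cells. Without the Myh11 and the leukocyte-rich members, 13 of the genes could be compared, none was called higher, 1 was lower, and the median was 0.01. At that setting 3.76% of 2074 genes were higher and 4.68% lower over all genes. Acta2 then gave 24 and 37 UMIs (0.26, -0.51 to 1.07) and Tagln 18 and 10 (-1.17, -2.48 to -0.01). The Myh11 cells also held 72 of 110 Thbs1 UMIs, 12 of 18 Postn UMIs and 14 of 16 Nov UMIs of the fibrosis members. They had mitochondrial shares of 4.71% in the control cell and a median of 7.01% in fibrosis, against medians of 3.01% and 3.12% over all members.

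**Figure D4:**
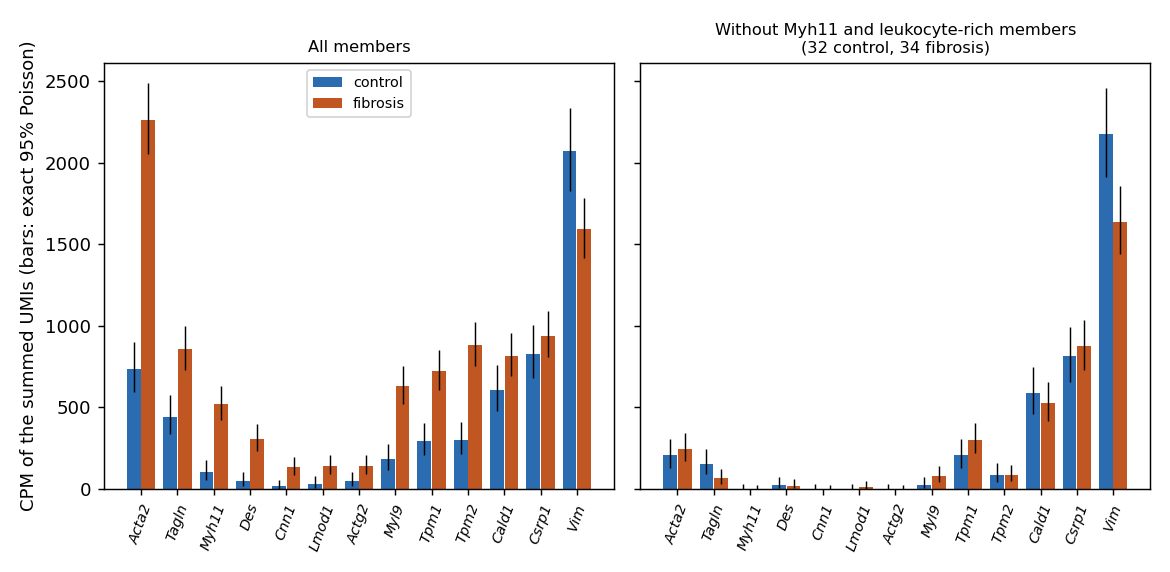
Bars give the CPM of 13 contractile genes in control and fibrosis members, with exact 95% Poisson intervals. The left panel has all 34 and 42 members, where Acta2 stands at 735 and 2262 CPM, and the right panel leaves out the Myh11 and leukocyte-rich members, where it stands at 205 and 247 CPM.

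Genes that mark activated fibroblasts in fibrotic lung were mostly scarce. Of 22 listed genes, 6 could be compared, 2 were called higher (5.44% of all genes), none lower (5.32%), and the median was 0.80. For the 4 that could be compared in the other classes, the median there was 0.60, and members stood at -0.52 beyond it. Without the Myh11 and leukocyte-rich members 3 of 6 were higher (3.76% of all genes there), with a median of 1.07. In the Dcn group 1 of 4 was higher (5.51%), with a median of 0.01. In the Npnt group 4 of 4 were higher (6.93%), with a median of 2.61. Cthrc1, Lrrc15, Grem1 and Ccl2 had no UMI in either library, and Tnc, tenascin C, had 3 and 3. Postn, periostin, had 0 UMIs in control and 18 in 7 fibrosis cells, 3 of the Dcn and 4 of the Myh11 group. Serpina3n, a secreted protease inhibitor, gave 38 UMIs in 12 control cells and 121 in 20 fibrosis cells (1.08, 0.56 to 1.66), with 26 and 83 of them in the Dcn group. Its ratio was 0.53 under the stricter exclusion of other cell types. Cdkn1a, the cell cycle inhibitor p21, gave 8 and 40 UMIs (1.68, 0.63 to 3.05), 14 of them in 1 leukocyte-rich fibrosis cell. The proliferation genes Mki67 and Top2a had 3 and 2 UMIs, all in 1 Myh11 cell of the fibrosis library.

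In the Npnt group, some genes more abundant in Dcn cells had more UMIs in fibrosis than in control. The genes of this paragraph were chosen after their values had been seen, and 6.93% of the 895 genes compared in this group were higher and 5.36% lower by 2-fold. Igfbp4, a carrier of insulin-like growth factors, gave 176 and 183 UMIs in the control and fibrosis Dcn groups and 0 in all 15 control Npnt cells. In the 16 fibrosis Npnt cells it gave 37 UMIs in 10 cells, at least 8.17-fold higher in CPM with 3 counts set for the 0. Among Npnt cells without any Dcn UMI, 28 of these UMIs lay in 7 of 12 cells. B cells held 19.5 and 17.4 CPM of Igfbp4, against 513 CPM in the fibrosis Npnt group. Cxcl12, a chemokine that retains leukocytes, gave 1 UMI in control and 33 in 7 fibrosis cells (3.89, 1.87 to 9.80). C4b, complement C4, gave 7 UMIs in 3 cells and 57 in 10 (2.35), and its ratio in the 5 other classes was 2.56. C3, the central complement protein, gave 37 UMIs in 13 of 15 control cells and 104 in 13 of 16 fibrosis cells (0.89, 0.34 to 1.48), 28 of them in 1 fibrosis cell.

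Further genes of that kind were Dpt (dermatopontin, a collagen-binding protein), with 18 UMIs in 8 cells and 57 in 13 (1.04, 0.28 to 1.92), Mmp2, with 8 and 50 (1.98, 0.96 to 3.34), and Sfrp1, a secreted Wnt inhibitor, with 4 and 23 (1.79, 0.38 to 3.92). Without the leukocyte-rich members the fibrosis counts were 36 for Igfbp4, 33 for Cxcl12, 57 for C4b, 57 for Dpt, 48 for Mmp2 and 23 for Sfrp1. Col14a1 gave 1 and 8 UMIs, with 5 of the 8 in the leukocyte-rich member, and Pi16 gave 0 and 0. Of the 25 adventitial genes, 9 could be compared in this group, and the median was 0.67. Of these 3 were higher and none lower, beside 6.93% and 5.36% of all genes compared there. The 25 genes together took 2.38% of UMIs (2.24 to 2.52) in control and 2.12% (2.01 to 2.23) in fibrosis. In the Dcn group 19 of them could be compared, none was higher, 3 were lower and the median was -0.17, against 5.51% higher and 5.85% lower of all 1179 genes compared there. In the Npnt group Serpina3n gave 10 and 38 UMIs, and Cdkn1a 1 and 24, 14 of the latter in the leukocyte-rich member.

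Tcf21 and some other alveolar genes stood lower in the fibrosis Npnt cells. Tcf21, which also drew the group, gave 44 UMIs in 11 of 15 control cells and 22 in 8 of 16 fibrosis cells (-1.58, -2.40 to -0.82). Npnt, which drew the group as well, gave 104 and 86 (-0.87, -1.30 to -0.44), and Inmt 538 and 530 (-0.61, -0.79 to -0.44). Tcf21, Npnt and Inmt belong to the rule that chose the cells, so these values are descriptive. Outside the rule, Hsd11b1 gave 102 and 79 UMIs in this group, Mettl7a1, a methyltransferase-like protein, 78 and 56, and Spon1, spondin 1, 42 and 32. Of the alveolar list, 19 of 27 genes could be compared in this group, and the median was -0.40. Of these 1 was higher and 2 were lower, beside 6.93% and 5.36% of all 895 genes compared there. The fibrosis cells were deeper, with a median of 4308 UMIs against 2945. After thinning each cell to 1500 UMIs, Igfbp4 was found in 0 of 15 control cells, which allows a share of up to 20%, and in 8 of 16 fibrosis cells. Tcf21 was found in 11 and 5. For C3 the thinned shares, 73.3% and 56.3%, went against its CPM, and no order is read from them.

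**Figure D5:**
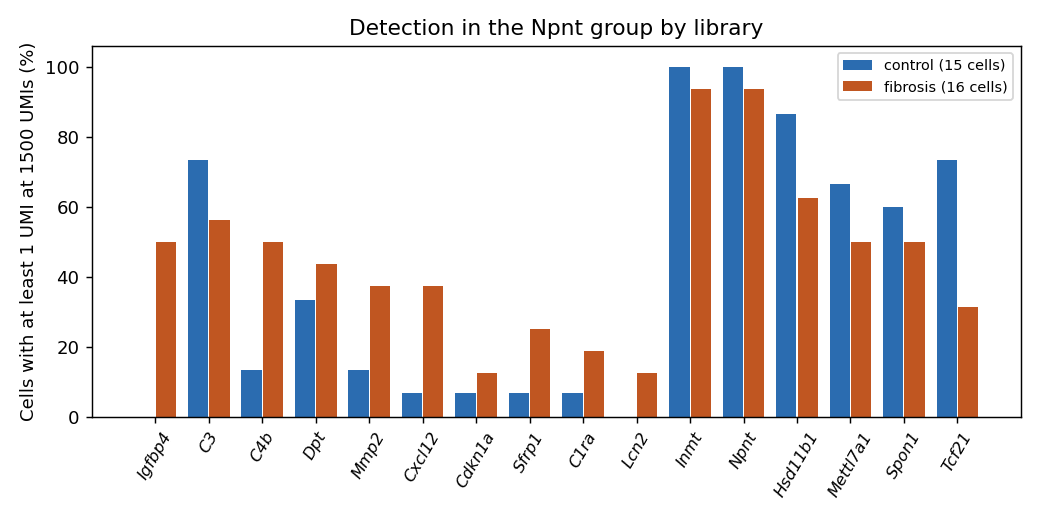
Bars give the share of Npnt-group cells with at least 1 UMI of a gene, in percent, after each of the 15 control and 16 fibrosis cells was thinned to 1500 UMIs. Igfbp4 stands at 0% and 50% and Tcf21 at 73.3% and 31.3%, in control and fibrosis. Npnt and Tcf21 UMIs drew the group.

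Over all members, the 20 comparable genes of the alveolar list had a median of -0.24 with none past 2-fold. The 20 of the adventitial list had a median of -0.28, with 4 lower (5.32% of all genes) and none higher (5.44%). The lower ones were Ly6c1, a surface antigen, with 43 and 18 UMIs (-1.81, -2.71 to -1.01), Cd248, endosialin, with 33 and 18 (-1.43, -2.36 to -0.58), Efemp1, and the alarmin Il33 with 21 and 14 (-1.14, -2.25 to -0.11). Among rule genes, Dcn gave 834 and 796 UMIs (-0.64, -0.78 to -0.50), Inmt 727 and 807 (-0.42, -0.57 to -0.28), Npnt 110 and 102 (-0.68, -1.09 to -0.28), Tcf21 53 and 29 (-1.43, -2.15 to -0.76), Lum (lumican) 17 and 8 (-1.62, -3.08 to -0.37) and Pdgfra 93 and 124 (-0.16, -0.56 to 0.24). The share of members in each group bears on these sums, since 16.7% of fibrosis members were Myh11 cells against 2.94% in control. Within the Dcn group Inmt gave 164 and 276 UMIs (0.52, 0.24 to 0.81), opposite to the Npnt group.

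Signals and receptors had medians near that of all genes, with a few past 2-fold. Of 65 growth factors and niche signals, 21 could be compared, none was higher, 2 were lower (5.32% of all genes), and the median was 0.02. Fgf2, a fibroblast mitogen, gave 16 and 6 UMIs (-1.92, -3.63 to -0.56). Igf1, insulin-like growth factor 1, gave 31 and 49 (0.08, -0.59 to 0.78) while its median ratio in the other classes was 2.10. Ctgf, a matricellular factor of scarring, gave 14 and 40 (0.91, 0.03 to 1.93). Of 43 receptors, 22 could be compared, 3 were higher (5.44% of all genes), none lower, and the median was 0.03. They were Igf1r, the receptor of insulin-like growth factors, with 6 UMIs in 5 cells and 33 in 19 (1.79, 0.61 to 3.43), Ptch1, the hedgehog receptor, with 9 and 30 (1.11, 0.05 to 2.42), and Pdgfrb with 6 and 21 (1.15, -0.12 to 2.83). Tgfbr2, a receptor of TGF-beta, gave 42 and 99 (0.65, 0.13 to 1.22).

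The calls in the lists of this paragraph stand beside 5.44% higher and 5.32% lower among all genes. Of 23 chemokines and cytokines, 6 could be compared. Tnfsf13b, the B cell survival factor BAFF, was higher with 11 and 36 UMIs (1.09, 0.13 to 2.26), and Il33 was lower. Of 52 transcription factors 23 could be compared, none was higher and 3 were lower: Tcf21, Klf2 (21 and 14 UMIs, -1.14) and Wwtr1 (TAZ; 23 and 12, -1.48, -2.65 to -0.45). In the list of retinoid and steroid handling, 9 of 19 could be compared and Lrat, which stores retinol as esters, was higher with 2 UMIs in 2 cells and 19 in 11 (2.39, 0.62 to 5.82). Of the complement and acute phase list, 12 of 23 could be compared, with Serpina3n higher, Cd55 lower (15 and 11 UMIs) and a median of 0.06. Lists of lipid handling (8 compared), antioxidant genes (19), glycolysis (8) and interferon response (8) had no gene past 2-fold. Of the immediate early and heat shock list, 22 could be compared, 4 were higher (Fosb, Zfp36, Hspa1a, Hspe1) and Hspa5 was lower. Without the Myh11 group 20 could be compared, with 1 higher and 2 lower (3.71% and 4.81% of all genes there) and a median of -0.32. With the leukocyte-rich members left out too, 2 of 19 were higher and 2 lower (3.76% and 4.68% of all genes there). Of the Hspe1 UMIs, 1 and 19 were in Myh11 cells. Hspa1a, a heat shock chaperone, gave 2 and 25 UMIs, 20 of them in Myh11 cells. Of 4 comparable cell cycle genes, Hmgb2 was higher (10 and 37 UMIs, 25 in 1 cell and 28 in the Myh11 group) and Tuba1b, a tubulin, lower (71 and 38, -1.47, -2.08 to -0.89).

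Among all genes beyond the other classes, the largest ratios rested partly on single cells. C1qb gave 1 and 46 UMIs, 41 in 1 cell, and Cd74 gave 10 and 221, 122 in that cell. The class II genes H2-Eb1, H2-Aa and H2-Ab1 gave 4 and 66, 4 and 60, and 7 and 67. Cd74 and class II genes are abundant in B cells, and Cd74 stood at 2665 and 3478 CPM in alveolar type 2 cells and at 1736 and 1875 CPM in endothelial cells. The part of RNA from other cells in these values was not tested. The other genes at that end were Thbs1, Polr2k, Igf1r, Cdkn1a, Flna, Cdc42ep3 and Ppp1cb. Flna, the actin crosslinker filamin A, gave 30 and 137 UMIs (1.60), of which 11 and 106 were in the Myh11 group. Without that group and the leukocyte-rich members its ratio was 0.30, and those of Polr2k, Cdc42ep3 and Ppp1cb were 1.78, 1.48 and 1.23. At the lower end Ugdh, an enzyme of glycosaminoglycan synthesis, gave 27 UMIs in 15 control cells and 8 in fibrosis (-2.27), and Chil3 gave 143 and 51, 135 of them in 1 control cell. Ly6c1, Tmem100, Hspa5, Trf, Ech1, Manf, Wwtr1, Pigp, Arap1 and Csnk2b followed. Gm10073, Gm10076, AY036118 and Wdr89 differed by 2.17, 2.00, 2.63 and -2.12 on the log2 scale, and each lay within 1 log2 of its ratio in the other classes.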

How the data were processed

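Single cells of 1 control and 1 fibrosis lung were captured with the 10x 3′ V2 chemistry. The authors deposited UMI counts per gene and cell made with Cell Ranger 1.3 on the mm10 genome, per the submitters' processing notes; filters before deposit are not given in the sources used here. Cells with over 10% mitochondrial UMIs were left out, and members were gated on the deposited counts as described above. UMIs were summed over members per library and scaled to 1000000 (CPM). Ratios had 0.5 UMI added, genes needed 20 UMIs over both libraries, and 2-fold was the call. Ranges are exact Poisson, Clopper-Pearson or conditional binomial 95% intervals. Cells of 1 mouse are not replicates, so no test was run. Another class counted for a gene with 10 UMIs, and 3 classes were needed. Libraries held 36632591 and 38090308 UMIs, with at least 1460 and 1915 per cell. Doublets were scored with scanpy 1.11.5 (Scrublet) and left out only as an alternative. edgeR 4.0.16 gave TMM factors, 1.03 and 0.969, for an alternative scaling. The calculations were checked on simulated counts. The members and the gene lists were chosen with earlier results of these data known. The chaperone list, the Dcn, Npnt and Myh11 groups and the leukocyte limit were added after the data had been seen. Of the symbols in 37 lists, 8 were not matched. Genes were named where they belonged to the rule, were called in a list, were among the 12 largest ratios each way beyond the other classes (30 UMIs, 5 cells), or led the members; others are named as examples of their list. Promoters came from the RefSeq table of GRCm38.p6. Calculations used Python 3.11.15 with scipy 1.17.1.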

Additional observations from a re-analysis of the deposited data

How the results depend on the processing

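No paired analysis was possible because each group has 1 library, and leaving out a replicate is not possible for the same reason. Of 1639 values of 112 named genes over 16 alternative settings, 1529 stayed within the counting interval of the main value, 101 lay outside it, and 9 had the other sign than a main ratio of at least 2-fold. Another 45 values had the other sign than a main ratio under 2-fold, so 22 genes changed sign at some setting. The 2 filters on UMIs cannot change the ratio of a gene. Leaving out shared barcodes removed no member, so it cannot either. Values at these settings count among the 1529 by construction. With a mitochondrial limit of 5%, which removed 6 of the 7 fibrosis Myh11 cells and kept the control one, the log2 ratios were -1.10 for Acta2, -1.67 for Tpm2, -0.61 for Myl9, -0.26 for Flna and -0.13 for Hmgb2. Acta2 stood at -1.83 with other cell types left out. Chil3 stood at 1.90 without doublets by score, at 1.96 without the leukocyte-rich members and at 2.18 without these and the Myh11 cells. The 133 higher genes became 84 among members with at least 5 rule genes, 75 at 5% mitochondrial UMIs, 70 with other cell types left out, 56 after thinning to 1500 UMIs, 1058 and 41 with filters of 5 and 50 UMIs, 81 without Myh11 cells and 78 without these and the leukocyte-rich members. In the same order, the 67 genes higher beyond the other classes became 34, 29, 37, 22, 650, 14, 34 and 32. The 130 lower genes became 50 after thinning and 954 and 26 with the 2 filters. The 82 lower beyond the other classes became 33, 708 and 12 there, and 50 with TMM scaling. Thinning and the filter of 50 UMIs compared 841 and 916 genes, the filter of 5 UMIs 7257. Of 352 list medians, 9 moved past the range of order statistics around the median: contractile -0.024 (5 rule genes), -0.26 (5% mitochondrial), -0.13 (other cell types out), 0.011 (Myh11 cells out) and 0.0056 (both out); adventitial -0.035 (5% mitochondrial) and -0.056 (Myh11 cells out); alveolar 0.089 (other cell types out); growth factors -0.30 (thinned). Apart from the constructions named, the cause of these shifts was not tested. The settings without Myh11 cells, without leukocyte-rich members, without both, and without the cell with the most Col1a1 were added after the data had been seen. The number of UMIs limits the rest: with 34 and 42 cells, a gene with 20 UMIs has an interval several log2 units wide.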
